A study of Mus musculus with 36 samples.

Results

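The genes described here are listed inhibitors of MAP kinase signals, mainly of the ERK pathway, in the mouse pre-B cell line B3. They are the dual-specificity phosphatases Dusp2, Dusp4, Dusp5, Dusp6, Dusp7 and Dusp10, the Sprouty genes Spry1 and Spry2, and their relatives Spred1 and Spred2. Whether ERK induces these genes in B3 was not tested. They were taken from the table by symbol, from a list drawn up with earlier results of these data known. Of the 10 listed genes, 9 were among the 12762 genes of the deposited table, and Spry2 was not analysed here. B3 stands for proliferating B cell progenitors at the pre-B stage. Strand-specific mRNA-seq covered 36 libraries, 18 from each of 2 lines, at 0, 2, 6, 12, 18 and 24 h with n = 3 per group. Ikaros cells carried an MSCV retroviral vector that encodes haemagglutinin-tagged wild-type Ikaros fused to the ERt2 hormone-binding domain of the estrogen receptor, followed by IRES-GFP, so that 4-hydroxy-tamoxifen (4-OHT) moves the protein into the nucleus. Control cells carried the same MSCV vector with ERt2 and IRES-GFP but no Ikaros. Both lines were populations of transduced cells sorted for GFP, and both have the Ikaros gene of their own. A dose of 0.5 uM 4-OHT appears in the labels of all libraries, 0 h included. The methods of the study instead describe the 0 h cells as untreated and collected on separate occasions, so a comparison with 0 h also compares collections. Replicates were culture batches 1, 2 and 4 at 0 h and batches 1, 3 and 4 later, and p-values measure the spread between these batches.

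Values are log2 expression levels as normalized by the authors. The whole table was shifted by 1 constant, so a level has no absolute unit, and differences between libraries are log2 fold changes on the assumption that the base is 2. Differences are given as Ikaros minus control with the standard error (SE) of limma, a linear model fitted over all genes, and p-values were Benjamini-Hochberg adjusted over all 12762 genes. The threshold for a call was an adjusted p of 0.05. Ikzf1, the Ikaros gene, lay between 19.63 and 20.93 in the Ikaros libraries and between 13.95 and 14.85 in the control libraries, in accord with the labels. All 12 pre-B cell markers listed were in the table, led by Cd79a, whose mean exceeded that of 99.5% of genes. Only 1 of 6 T cell, 2 of 6 myeloid, 2 of 5 erythroid and 1 of 5 stromal markers were in the table. Several of these moved with the comparison. Vim, also expressed by many leukocytes, had a high mean level of 15.19 and was called higher in Ikaros cells at every time but 6 h, by 0.61 at 0 h and 0.97 at 24 h. Of the low myeloid markers, Lyz2 was called higher at 0 h (2.94) and lower at 24 h (-2.94), and Itgam was called higher from 6 h on (4.24 at 24 h). The mean level of both myeloid markers was 5.01 to 6.01 in control and 6.33 to 7.08 in Ikaros libraries at 0 h, against 6.14 to 6.79 and 6.62 to 7.25 at 24 h. Lck, the T cell marker, differed by 0.71 at 0 h and 0.02 at 24 h, and the erythroid Hbb-b1 by -2.02 and 0.57, both called at 0 h and not at 24 h. The mean level of the pre-B markers was 13.98 to 14.23 in control and 13.78 to 13.98 in Ikaros libraries at 0 h. At 24 h it was 13.73 to 13.89 and 14.42 to 14.59. Single pre-B markers moved in both directions: 1 was called higher and 2 lower at 0 h, 2 and 5 at 6 h, and 8 and 2 at 24 h. Of all genes, 4.61% and 3.72%, 18.1% and 19.2%, and 31.0% and 31.9% were called higher and lower at these times. The part of any of the markers in the results was not tested. Each library correlated with the others of its group at a mean r of 0.966 to 0.991 across genes, lowest in control cells at 18 h in batch 4.

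The ERK cascade passes a signal from receptors through Ras, Raf and MEK to the kinase ERK, and in pre-B cells it carries signals from the interleukin-7 receptor and the pre-B cell receptor. Its output is held in check by proteins whose genes the pathway often induces itself. Dual-specificity phosphatases remove both activating phosphates from MAP kinases, whereas Sprouty and Spred proteins act upstream, at the level of Ras and Raf. Transcript levels of these genes are therefore often read as a trace of recent ERK activity, although they do not measure the activity of the kinase.

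Of the 9 genes, 6 ended lower in Ikaros cells and 3 ended higher. At 24 h Spry1, Dusp7, Spred2, Dusp4, Dusp6 and Spred1 were called lower and Dusp5, Dusp10 and Dusp2 were called higher, against a background of 31.9% of all genes called lower and 31.0% called higher. Spry1 was 29.4-fold lower and Dusp7 10.2-fold lower, whereas the rises were 2.25-fold to 3.22-fold. No gene overlapped between the lines at 24 h, where 71.0% of all genes did not overlap. The same 3 and 6 genes were called at 18 h, with a background of 29.0% higher and 29.2% lower. At 12 h 3 were called higher and 5 lower, with a background of 23.0% and 22.8%, and Spred1 was not called. In bulk RNA, fewer cells that express a gene and less of its RNA per cell cannot be told apart.

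The direction was already mixed early. At 0 h Dusp4, Spred1 and Dusp2 were called higher and Dusp5 lower in Ikaros cells, with a background of 4.61% higher and 3.72% lower. At 2 h only Dusp5 was called higher, and Spry1, Dusp6, Dusp4, Spred2 and Dusp7 were called lower, with a background of 9.18% and 9.88%. At 2 h 5 of the 9 genes did not overlap between the lines, as did 27.9% of all genes. At 6 h 2 were called higher (Dusp2 and Dusp5) and 2 lower (Dusp7 and Spry1), with a background of 18.1% and 19.2%. Over the 9 genes the median difference was -0.82 (2 h), -0.18 (6 h) and -1.17 (24 h), whereas the median over all genes stayed at -0.00, -0.01 and -0.01.

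**Figure D1:**
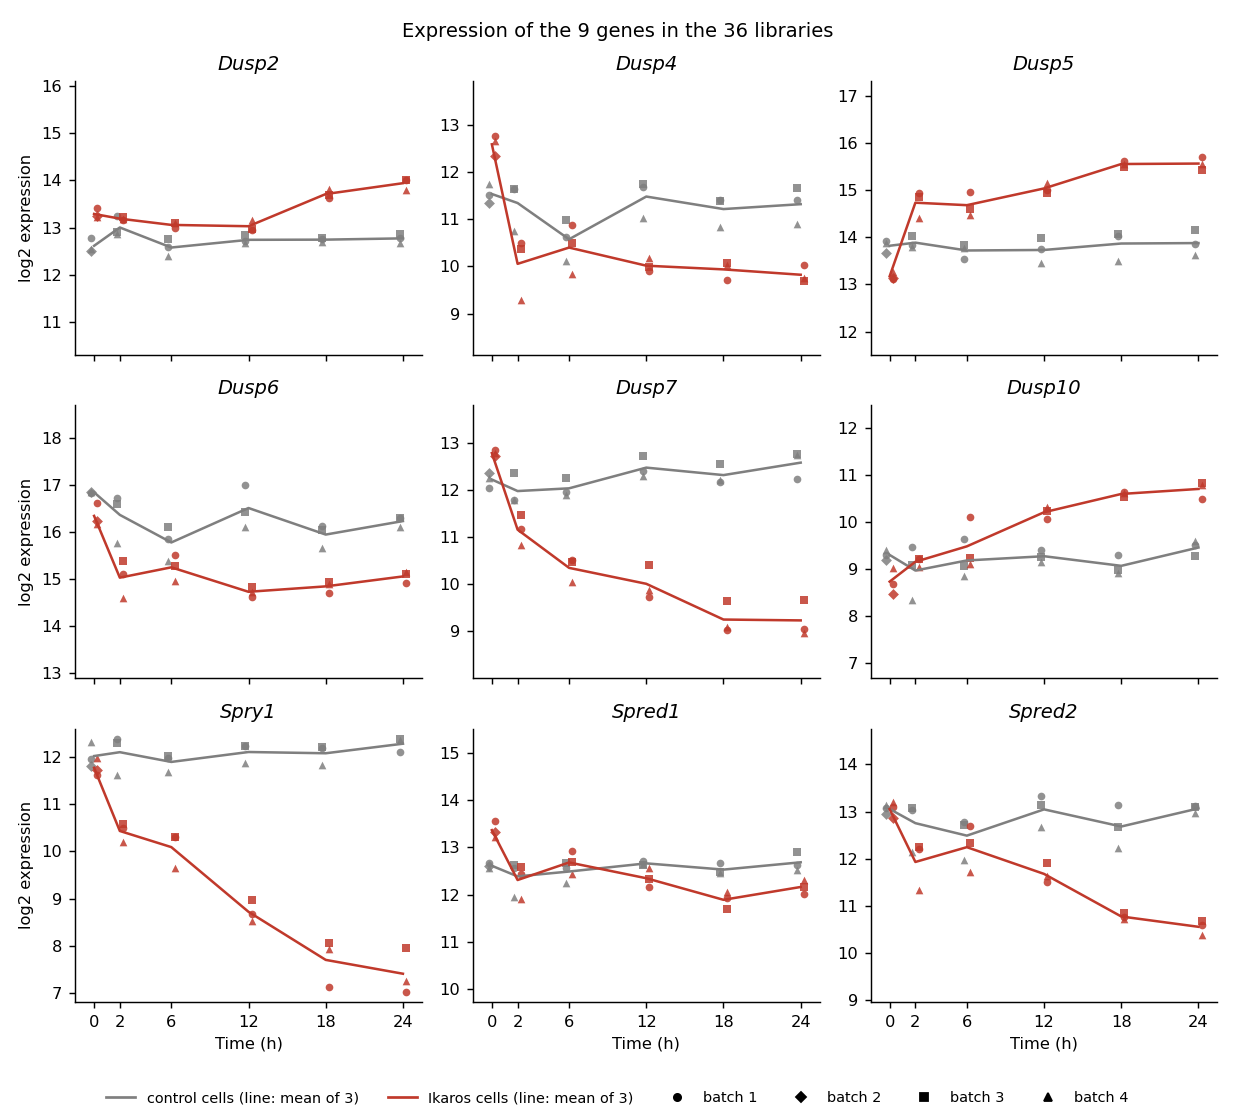
Log2 expression (y axis, each panel spanning the same number of log2 units) against time in hours (x axis) for the 9 genes in all 36 libraries. Points are single libraries with the culture batch as the symbol, and lines join the means of 3 libraries; Ikaros libraries (red) of Spry1 and Dusp7 descend to 7.02 and 8.97, while control libraries (grey) of the same genes stay between 11.63 and 12.76.

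The genes were next followed over time within each line. All 9 genes passed the limma F test for change over time within Ikaros cells, as did 76.4% of all genes. Within control cells, which share the drug and the culture, 0 of 9 passed, with a background of 1.69%. An unadjusted p under 0.05 was found for 3 of the 9 and for 2438 of all 12762 genes. When the fit held the batch number as a replicate block, 3 genes passed within control cells: Dusp6 (adjusted p = 0.0130), Dusp7 (0.0257) and Dusp4 (0.0488). In that fit 5.98% of all genes passed. All 9 passed the F test over the 5 changes of the Ikaros-control difference from 0 h, with a background of 59.8%. That call was lost for Dusp6 without batch 1 (adjusted p = 0.422) or without batches 2 and 3 (0.130), for Spred1 without batch 1 (0.0692) and for Dusp10 without batches 2 and 3 (0.0579).

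The stretches of DNA just before 3 of the genes are shown because these genes had the largest rise and the 2 largest falls at 24 h. The windows of 250 bases before the RefSeq start site were read for 8 of the 9 genes from a RefSeq promoter table on GRCm38.p6. Each was searched on both strands for TGGGAA, a core that Ikaros can bind, for CCGGAAG, an ETS site, for the cAMP response element TGACGTCA, and for the CArG box, the site of serum response factor. In the Dusp5 sequence the capitals mark 2 CArG boxes that follow each other directly, starting at -82 and -72 from the start site. Spry1 and Dusp7 held no match to the 4 motifs, so their letters are all in lower case. All are on the forward strand, 5′ to 3′, and the Dusp5 run stops where the annotated first exon of another start site begins.
Dusp5 (chr19:53528895-53529108): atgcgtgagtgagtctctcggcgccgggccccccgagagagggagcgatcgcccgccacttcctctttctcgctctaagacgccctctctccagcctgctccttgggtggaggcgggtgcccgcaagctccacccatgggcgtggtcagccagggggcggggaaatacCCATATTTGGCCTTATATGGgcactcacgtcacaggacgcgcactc
Spry1 (chr3:37639697-37639946): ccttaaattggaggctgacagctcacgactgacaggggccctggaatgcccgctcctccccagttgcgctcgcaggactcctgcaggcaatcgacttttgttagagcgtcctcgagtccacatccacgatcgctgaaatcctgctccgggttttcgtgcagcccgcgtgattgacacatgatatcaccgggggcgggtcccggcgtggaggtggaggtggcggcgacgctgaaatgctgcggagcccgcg
Dusp7 (chr9:106368382-106368631): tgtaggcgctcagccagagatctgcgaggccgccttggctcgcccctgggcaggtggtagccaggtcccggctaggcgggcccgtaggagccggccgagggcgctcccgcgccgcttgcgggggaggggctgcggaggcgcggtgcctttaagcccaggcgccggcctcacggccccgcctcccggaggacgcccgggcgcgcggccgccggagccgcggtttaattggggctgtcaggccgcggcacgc
A CArG box was present in 1.47% of the 32851 promoters of that length, and 0.0183% held 2 or more. TGGGAA was found in 21.6% of promoters, among them those of Dusp2, at -207 on the reverse strand, and Spred2, at -59. CCGGAAG was found in 6.91% and TGACGTCA in 1.55% of promoters, and in none of the 8. The windows of Spry1, Dusp6, Dusp7, Dusp10 and Spred1 held none of the 4 motifs. That of Dusp10 (chr1:184034131-184034380) lay inside the annotated gene, which starts at 184013302, and the sequence before that start was not read. The Dusp7 window had the highest share of G and C of the 8, at 77.2%, and the median over all promoters was 52.4%.

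Dusp5 (ENSMUSG00000034765; GRCm38 chromosome 19, 53529109 to 53542431) encodes a nuclear phosphatase that acts on ERK and not on other MAP kinases. It was the only one of the 9 called lower in Ikaros cells at 0 h and higher at 2 h. At 0 h its levels were 13.12, 13.14 and 13.26 in Ikaros cells and 13.93, 13.66 and 13.88 in control cells. At 2 h they were 14.93, 14.86 and 14.41 against 13.84, 14.04 and 13.78, and at 24 h 15.71, 15.43 and 15.56 against 13.86, 14.15 and 13.63. The lines did not overlap at any of these times, and Ikaros cells were the lower line at 0 h and the higher line at 2 h. The difference was -0.65 (SE 0.16, adjusted p = 0.0108) at 0 h, 0.85 (SE 0.16, adjusted p = 0.000453) at 2 h and 1.69 (SE 0.16, adjusted p = 1.12e-09) at 24 h. It therefore rose by 1.50 from 0 to 2 h (adjusted p = 0.000189) and by a further 0.84 from 2 to 24 h (adjusted p = 0.00417), a step that uses no 0 h library. Without batch 1 the calls at 0 h, at 2 h and for the change from 0 to 2 h were lost (adjusted p = 0.274, 0.0707 and 0.132), and the call at 0 h was also lost without batch 2 (0.130). In the annotation, Dusp5 overlaps an antisense transcript, and the strand setting of the counting is not given in the sources used here.

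Dusp2 (ENSMUSG00000027368; chromosome 2, 127336159 to 127338376) is another nuclear phosphatase, known as an immediate-early gene of activated lymphocytes. Its levels at 0 h were 13.41, 13.24 and 13.22 in Ikaros cells and 12.77, 12.51 and 12.55 in control cells. They met at 2 h, with 13.16, 13.23 and 13.17 against 13.25, 12.90 and 12.86, and at 24 h were 14.01, 14.02 and 13.80 against 12.78, 12.86 and 12.67. Dusp2 was thus higher in Ikaros cells at 0 h and at 24 h, and overlapped at 2 h. The difference was 0.68 (SE 0.10, adjusted p = 4.1e-05) at 0 h, 0.19 (95% interval -0.02 to 0.40, adjusted p = 0.229) at 2 h and 1.17 (SE 0.10, adjusted p = 1.61e-10) at 24 h. The narrowing from 0 to 2 h, -0.49, was not called (adjusted p = 0.0665) and was called with the replicate block (0.0424). The widening from 2 to 24 h was 0.98 (adjusted p = 3.5e-06). At 12 h the difference of 0.29 (adjusted p = 0.0235) lost its call without each of the 3 replicates in turn (0.0745 to 0.201). With only the groups compared, the calls at 6 h and 12 h were lost (0.0705 and 0.113). The rise of 0.49 from 0 to 24 h (adjusted p = 0.00616) lost its call without batch 1 (0.0709) or without batches 2 and 3 (0.0712).

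Dusp4 (ENSMUSG00000031530; chromosome 8, 34807297 to 34819894), also a nuclear phosphatase, acts on ERK and on JNK and went the opposite way. Its levels at 0 h were 12.78, 12.34 and 12.66 in Ikaros cells and 11.51, 11.34 and 11.76 in control cells. By 2 h they were 10.50, 10.38 and 9.29 against 11.64, 11.64 and 10.75, and at 24 h 10.03, 9.68 and 9.76 against 11.41, 11.66 and 10.89. The order of the lines was thus inverted at 2 h without overlap, with both batch 4 libraries the lowest of their group. The difference was 1.05 (SE 0.30, adjusted p = 0.0279) at 0 h, -1.29 (SE 0.30, adjusted p = 0.00317) at 2 h and -1.50 (SE 0.30, adjusted p = 0.000123) at 24 h. It fell by 2.34 from 0 to 2 h (adjusted p = 0.00137), the largest of the 9 changes over that interval. From 2 to 24 h the change was -0.21 (95% interval -1.09 to 0.68, adjusted p = 0.721). At 6 h the control mean was 10.58 ± 0.43 (SD, n = 3), the lowest of its 6 group means, and the difference of -0.18 was not called (adjusted p = 0.685). The calls at 0 h and 2 h and for the change from 0 to 2 h were lost without batch 1 (adjusted p = 0.355, 0.0697 and 0.150) and without batches 2 and 3 (0.346, 0.0941 and 0.152). The call at 18 h was lost without batch 1 (0.0504). With only the groups compared the call at 2 h was lost (0.126).

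Dusp6 (ENSMUSG00000019960; chromosome 10, 99263231 to 99267489) encodes the cytoplasmic phosphatase that is the classical negative feedback regulator of ERK. It was the most abundant of the 9, with a mean level above that of 96.8% of genes (the normalization accounts for gene length). At 0 h its levels were 16.62, 16.24 and 16.16 in Ikaros cells and 16.83, 16.85 and 16.84 in control cells. At 2 h they were 15.10, 15.39 and 14.60 against 16.72, 16.59 and 15.77, and at 24 h 14.91, 15.11 and 15.14 against 16.28, 16.30 and 16.10. Ikaros libraries lay below control libraries at each of these times, and the gap at 0 h was the smallest of the 3. The difference was -0.50 (SE 0.23, adjusted p = 0.237) at 0 h, -1.33 (SE 0.23, adjusted p = 0.000141) at 2 h and -1.17 (SE 0.23, adjusted p = 8.92e-05) at 24 h, with its largest value, -1.78, at 12 h. The changes from 0 h were not called, at -0.83 for 2 h (adjusted p = 0.235) and -0.68 for 24 h (0.0936). The second of them was called with the replicate block (0.0365), and so was the difference of -0.53 at 6 h (0.0774 without and 0.0271 with the block). Control cells also moved, from a mean of 16.84 ± 0.01 at 0 h to 15.78 ± 0.37 at 6 h (SD, n = 3). With only the groups compared, the call at 2 h was lost (0.0678).

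Dusp7 (ENSMUSG00000053716; chromosome 9, 106368632 to 106375724), a close relative of Dusp6 that also acts on ERK in the cytoplasm, descended further and for longer. Its levels at 0 h were 12.84, 12.71 and 12.80 in Ikaros cells and 12.04, 12.36 and 12.27 in control cells. At 2 h they were 11.17, 11.46 and 10.84 against 11.80, 12.35 and 11.79, and at 24 h 9.06, 9.68 and 8.97 against 12.24, 12.76 and 12.74. Ikaros libraries were the higher ones at 0 h and the lower ones from 2 h on, without overlap at these times. The difference was 0.56 (SE 0.22, adjusted p = 0.132) at 0 h and -0.82 (SE 0.22, adjusted p = 0.00889) at 2 h. It then reached -1.69 at 6 h, -2.46 at 12 h, -3.06 by 18 h and -3.35 (SE 0.22, adjusted p = 5.04e-13) at 24 h. With the replicate block the difference at 0 h was called higher (adjusted p = 0.00521), as it was with only the groups compared (0.0292). The difference fell by 1.38 from 0 to 2 h (adjusted p = 0.00913) and fell by 2.53 from 2 to 24 h (adjusted p = 2.01e-07). The call at 2 h was lost without batch 1 (adjusted p = 0.0875), without batch 4 (0.0841) and with only the groups compared (0.103), and that for the change from 0 to 2 h without batch 1 (0.275) and without batch 4 (0.0957).

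Dusp10 (ENSMUSG00000039384; chromosome 1, 184013302 to 184075636) encodes a phosphatase that prefers p38 and JNK to ERK. It was the least abundant of the 9, just below the 25th percentile of gene means. Its levels at 0 h were 8.69, 8.48 and 9.03 in Ikaros cells and 9.29, 9.20 and 9.41 in control cells. At 2 h they were 9.21, 9.22 and 9.05 against 9.48, 9.10 and 8.34, and at 24 h 10.49, 10.83 and 10.78 against 9.52, 9.27 and 9.59. The lines overlapped at 2 h and were apart at 24 h, with Ikaros cells on top. The difference was -0.57 (SE 0.24, adjusted p = 0.166) at 0 h, 0.19 (SE 0.24, adjusted p = 0.653) at 2 h and 1.24 (SE 0.24, adjusted p = 5.01e-05) at 24 h, and it was largest at 18 h, at 1.52. It rose by 1.06 from 2 to 24 h (adjusted p = 0.0107), a call that was lost without batch 3 (0.225). At 12 h the call of 0.93 (adjusted p = 0.00191) was lost without batch 3 (0.0728). Dusp10 overlaps 1700056E22Rik on the opposite strand.

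Spry1 (ENSMUSG00000037211; chromosome 3, 37639947 to 37644598) encodes a Sprouty protein, an inhibitor of receptor signals to Ras that is itself induced by ERK. It had the largest difference of the 9 genes at 24 h. At 0 h its levels were 11.61, 11.73 and 11.98 in Ikaros cells and 11.95, 11.80 and 12.32 in control cells. By 2 h they were 10.51, 10.59 and 10.21 against 12.39, 12.30 and 11.63, and at 24 h 7.02, 7.94 and 7.25 against 12.10, 12.39 and 12.37. The lines overlapped at 0 h and were apart at 2 h and 24 h, with Ikaros cells lower. The difference was -0.25 (SE 0.25, adjusted p = 0.681) at 0 h, -1.67 (SE 0.25, adjusted p = 1.54e-05) at 2 h, -3.39 at 12 h and -4.88 (SE 0.25, adjusted p = 3.02e-15) at 24 h. It fell by 1.42 from 0 to 2 h (adjusted p = 0.0192) and fell by 3.21 from 2 to 24 h (adjusted p = 2.78e-08). Inside batches 1, 3 and 4 the difference at 24 h was -5.08, -4.44 and -5.11. The call for the change from 0 to 2 h was lost without batch 1 (adjusted p = 0.277) and without batches 2 and 3 (0.390), whereas the call at 2 h remained under each alternative tried. Spry1 overlaps Gm42922, a gene model on the opposite strand.

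Spred2 (ENSMUSG00000045671; chromosome 11, 19924375 to 20024026) and Spred1 (ENSMUSG00000027351; chromosome 2, 117121374 to 117182279) encode Sprouty-related proteins that restrain Ras and Raf. Spred2 started level in both lines, with 13.09, 12.87 and 13.20 in Ikaros cells and 13.07, 12.96 and 13.13 in control cells at 0 h. At 2 h its levels were 12.21, 12.24 and 11.35 against 13.04, 13.08 and 12.15, and at 24 h 10.60, 10.69 and 10.38 against 13.12, 13.10 and 12.97. The batch 4 library was the lowest of its group in both lines at 2 h, so the lines overlapped there, while the difference inside batches 1, 3 and 4 was -0.83, -0.84 and -0.80. The difference was -0.00 (95% interval -0.56 to 0.56, adjusted p = 0.998) at 0 h, -0.82 (SE 0.27, adjusted p = 0.035) at 2 h and -2.51 (SE 0.27, adjusted p = 8.79e-09) at 24 h. It fell by 1.69 from 2 to 24 h (adjusted p = 0.000758), and the change of -0.82 from 0 to 2 h was not called (0.368). The call at 2 h was lost without batch 1 (0.199), without batch 3 (0.310) and with only the groups compared (0.245).

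Spred1 had the smallest difference at 24 h of the 6 lower genes. At 0 h its levels were 13.55, 13.34 and 13.21 in Ikaros cells and 12.66, 12.60 and 12.57 in control cells. At 2 h they were 12.44, 12.59 and 11.90 against 12.57, 12.64 and 11.95, and at 24 h 12.02, 12.16 and 12.30 against 12.63, 12.89 and 12.53. Ikaros cells were the higher line at 0 h, overlapped at 2 h and were the lower line at 24 h. The difference was 0.76 (SE 0.18, adjusted p = 0.0052) at 0 h, -0.08 (95% interval -0.44 to 0.28, adjusted p = 0.819) at 2 h and -0.52 (SE 0.18, adjusted p = 0.0114) at 24 h. It fell by 1.28 from 0 to 24 h (adjusted p = 0.000111). The change of -0.83 from 0 to 2 h was not called (adjusted p = 0.0665) and was called with the replicate block (0.0445). The calls at 0 h, 18 h and 24 h were lost without batch 1 (adjusted p = 0.200, 0.0613 and 0.119), and also without batch 2 at 0 h (0.165) and without batch 3 at 18 h and 24 h (0.0733 and 0.168).

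**Figure D2:**
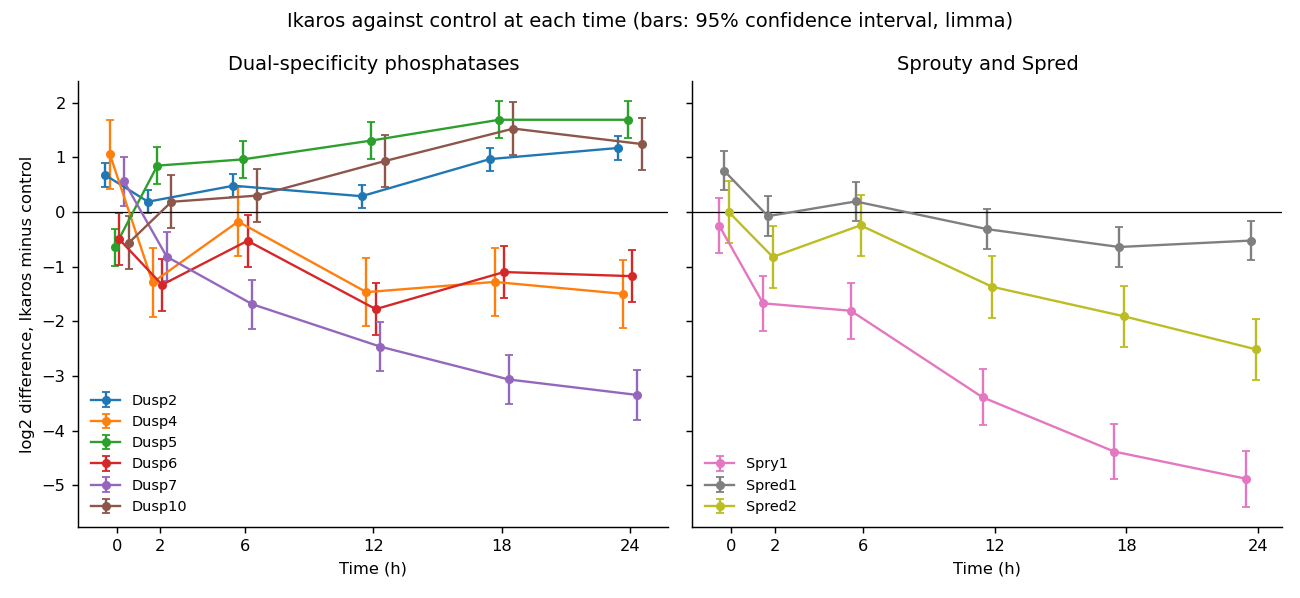
Log2 difference, Ikaros minus control (y axis), against time in hours (x axis), with the 6 phosphatases on the left and Spry1, Spred1 and Spred2 on the right. Points are limma estimates and bars 95% confidence intervals; Spry1, Dusp7 and Spred2 move steadily away from 0 after 6 h, and Dusp5 crosses from -0.65 at 0 h to 0.85 at 2 h.

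The changes were also counted by interval. From 0 to 2 h, 1 change was called higher (Dusp5) and 3 lower (Dusp4, Spry1 and Dusp7), with a background of 1.21% higher and 1.89% lower. With the replicate block 6 were called, 1 higher and 5 lower, with a background of 1.8% and 2.62% in that fit. Without batch 1 the number called was 0, without batches 2 and 3 it was 2, and without batch 4 it was 5. Of all 12762 genes, 54, 55 and 469 were called in these fits. With every library all 9 genes had an unadjusted p under 0.05, as did 1641 of all 12762 genes. From 0 to 24 h, 3 were called higher (Dusp5, Dusp10 and Dusp2) and 5 lower (Spry1, Dusp7, Dusp4, Spred2 and Spred1), with a background of 24.2% in each direction. From 2 to 24 h, where no 0 h library enters, 3 were called higher (Dusp10, Dusp2 and Dusp5) and 3 lower (Spry1, Dusp7 and Spred2), with a background of 23.3% higher and 24.0% lower. At least 1 of the 3 changes was called for 8 of the 9 genes and for 56.3% of all genes. Dusp4, Dusp6 and Spred1 were not called over that interval, with changes of -0.21, 0.16 and -0.45. The interval for Dusp6 ran from -0.52 to 0.83.

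At 6 h 5 of the 9 genes were not called, and the differences of Dusp4, Dusp6 and Spred2 were -0.18, -0.53 and -0.24. Control means at 6 h were the lowest of the 6 control means for Dusp4 (10.58), Dusp6 (15.78) and Spred2 (12.49). The same held for Dusp2 (12.58), Dusp5 (13.72) and Spry1 (11.90), which were called at 6 h. In Ikaros cells the 6 h means of Dusp4, Dusp6, Spred1 and Spred2 were 10.40, 15.25, 12.68 and 12.25, against 10.06, 15.03, 12.31 and 11.93 at 2 h. Batch 4 libraries were below their group mean in 10 of 12 cases for Spred2, and in 9 for Dusp2, Dusp6, Dusp7 and Spred1. The count was 8 for Dusp4 and Spry1, 7 for Dusp5 and 6 for Dusp10. Their mean deviation was negative for all 9 genes, from -0.27 for Spred2 to -0.05 for Dusp2. Inside each batch at 6 h the difference of Spred2 was -0.09, -0.39 and -0.25, and that of Dusp6 was -0.33, -0.83 and -0.42. For Dusp7 and Spry1 the batch 3 libraries were never below their group mean in 10 cases. What part of these values the batch had was not tested.

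**Figure D3:**
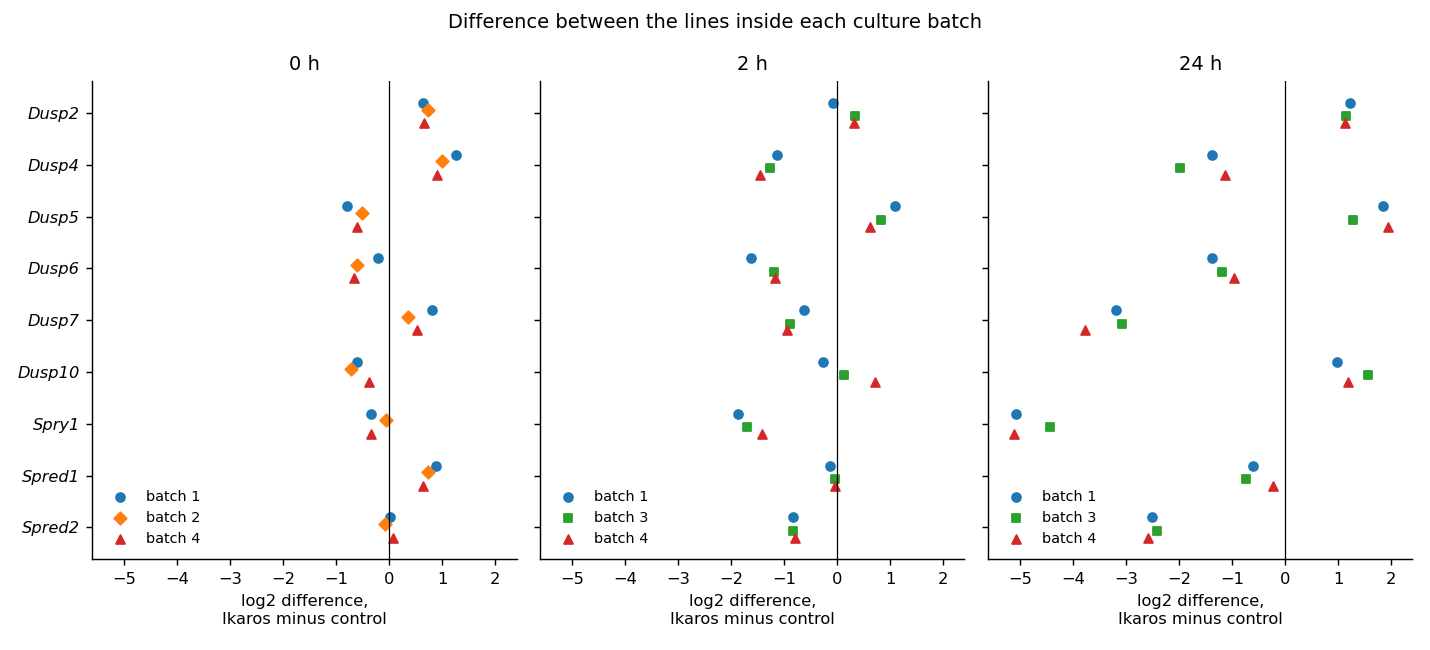
Log2 difference, Ikaros minus control (x axis), inside each culture batch for the 9 genes (y axis) at 0, 2 and 24 h. Each point is 1 Ikaros library minus the control library of the same batch; at 24 h the 3 batches lie on the same side of 0 for every gene, from -5.11 for Spry1 in batch 4 to 1.93 for Dusp5 in batch 4, whereas at 2 h the batches of Dusp2 and Dusp10 straddle 0.

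Some of the 9 genes followed each other over the 12 group means. All genes were measured in the same libraries, and the correlations are given as a description. Spry1, Dusp7 and Spred2 had pairwise r of 0.97 (Spry1 with Dusp7), 0.97 (Spry1 with Spred2) and 0.95 (Dusp7 with Spred2). Dusp5 ran opposite to Dusp7 with r of -0.97, and Dusp5 and Dusp10 had r of 0.90. Among all genes with a symbol, the 2 most alike in pattern by Pearson correlation of the 12 group means were Tmem119 and Abcc1 for Spry1 (0.994 each) and Mapk14 and St3gal1 for Dusp7 (0.994 and 0.991). They were Tmem201 and Otud4 for Spred2 (0.986 and 0.985), H2-T10 and Fgd3 for Dusp5 (0.984 and 0.978), and Ssh2 and Tyrobp for Dusp10 (0.988 and 0.986). For Dusp6 they were Klhl21 and Tnpo2 (0.981 and 0.971), for Dusp2 Adssl1 and Ppp2r3a (0.973 and 0.969), for Dusp4 Smg1 and Acsl1 (0.953 and 0.950) and for Spred1 Marveld1 and Mreg (0.911 and 0.906). Many genes were nearly as alike: the 100th most alike had r of 0.980 for Spry1 and 0.784 for Spred1.

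The other inhibitors of the pathway were called in both directions. Of 27 listed phosphatases and Ras-ERK inhibitors outside the 9, 20 were in the table. At 24 h 5 of these were called higher, 5 lower and 10 not, against 31.0% higher and 31.9% lower among all genes. The largest negative difference was that of Spry4, another Sprouty gene, with levels of 7.09 ± 0.37 in Ikaros and 11.35 ± 0.10 in control cells (SD, n = 3), a difference of -4.26. Its difference was 0.80 at 0 h and -0.85 at 2 h, and both were called (adjusted p = 0.0372 and 0.0137). Rasal1, a Ras GTPase-activating protein, differed by -2.01 at 24 h. The largest positive differences were 3.51 for Dusp22, a JNK pathway phosphatase with a low level of 6.30 ± 0.32 in control cells, and 1.73 for Cblb, a ubiquitin ligase that limits antigen receptor signals.

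The kinases and adaptors that carry the signal were counted in the same way. Of the 21 genes of the Ras-ERK cascade in the table (23 listed), 3 were called higher and 0 lower at 2 h, against 9.18% and 9.88% of all genes, and 7 higher and 5 lower at 24 h, against 31.0% and 31.9%. Rasgrp3, a Ras activator, had the largest positive difference at 24 h, 3.50 (SE 0.80), but was already 4.46 higher at 0 h at low levels (8.17 ± 0.79 against 3.71 ± 1.44, SD, n = 3). Gab2, an adaptor, was 1.63 higher at 24 h, and Ksr1, a scaffold of the cascade, and Rasgrp2 were lower, with differences of -0.76 and -0.62. Of the p38 and JNK cascade, 11 of 12 genes were in the table, and at 24 h 4 were called higher, led by Map3k1 (2.50) and Map3k5 (0.80), and 4 lower, led by Map2k3 (-1.58) and Mapk14 (-0.95), with the same background of 31.0% and 31.9%. Mapk14 encodes p38 alpha, a target of Dusp10.

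Genes listed as responsive to ERK were called lower more often than higher at each time from 2 h on. Their response to ERK in B3 cells was not tested. Of 23 listed, 21 were in the table. At 0 h 4 were called higher and 2 lower, against 4.61% and 3.72% of all genes. At 2 h the counts were 1 higher and 8 lower, against 9.18% and 9.88%, and at 12 h 4 higher and 11 lower, against 23.0% and 22.8%. At 24 h 5 were called higher, against 31.0%, and 10 lower, against 31.9%. For the change from 0 to 2 h, 0 were called higher and 7 lower, with 14 not called, against 1.21% higher and 1.89% lower among all genes. Their median difference was -0.41 at 2 h and -0.46 at 24 h. Etv4, an ETS factor, had a difference of -0.05 at 2 h and -4.26 at 24 h. Ccnd1, cyclin D1, was 1.90 higher at 0 h and had a difference of -4.13 at 24 h, with 6.68 ± 0.25 against 10.81 ± 0.02 (SD, n = 3). Epha2 and Elk3 had the largest positive differences, 1.95 and 1.50 at 24 h, and Epha2 was 3.97 higher already at 0 h. These lists were written with earlier results of the series known, so their counts describe the table and are not a test.

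**Figure D4:**
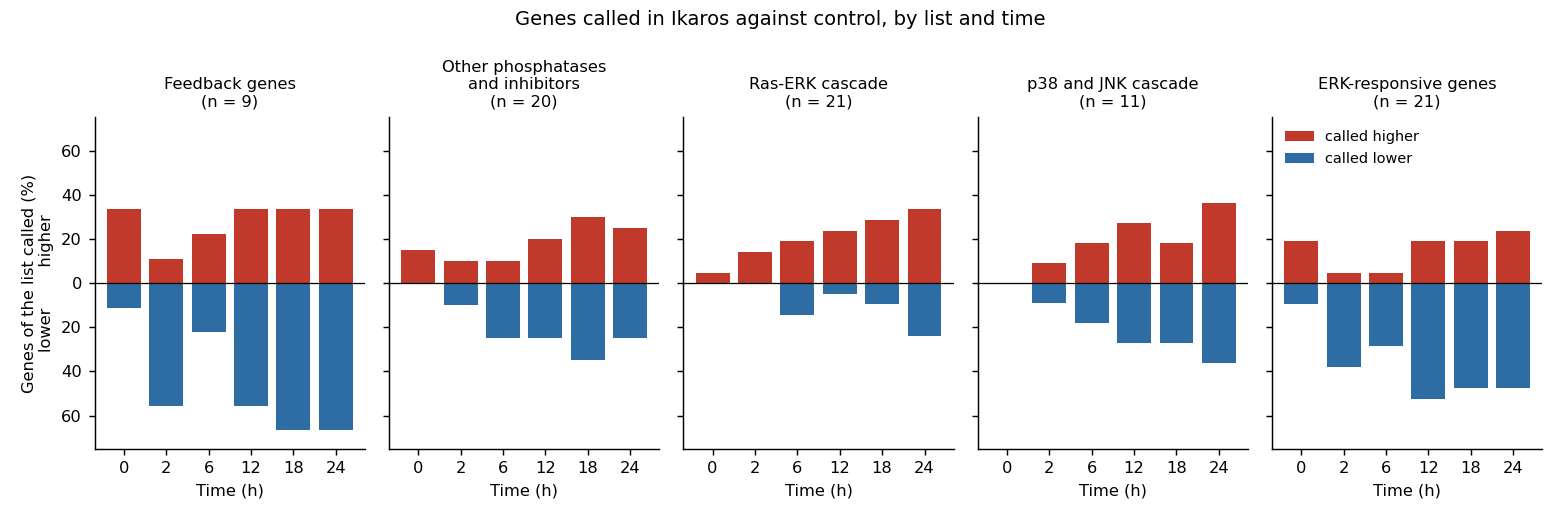
Share of the genes of each list in the table called higher (red, upward, %) or lower (blue, downward, %) in Ikaros against control cells (y axis) at each time in hours (x axis), by limma at an adjusted p under 0.05; n is the number of genes of the list in the table. The 9 feedback genes and the ERK-responsive genes show more calls downward than upward at 2 h (5 against 1 and 8 against 1), whereas the Ras-ERK cascade has 0 downward and 3 upward.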

How the data were processed

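Strand-specific mRNA-seq libraries of control and Ikaros B3 cells were grouped by line and time from the sample labels. The authors aligned reads to mm10 with TopHat2, keeping a unique best hit, counted genes with HTSeq, normalized with cqn for GC content and length and adjusted for library preparation with ComBat in its non-parametric form. Values were deposited as log2 expression, shifted so that the lowest is 1. The base is not stated in the table and was taken from cqn. Depth is unknown from these values, and the adjustment made before deposition may leave standard errors too small. The strand setting of the counting is not given in the sources used here. The 10 genes and the gene lists were chosen with earlier results of these data known.

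limma 3.58.1 in R 4.3.3 was fitted over 12762 genes with a mean for each of 12 groups. The study states no differential test. Tests were two-sided and Benjamini-Hochberg adjusted over all genes. Named genes were Ikzf1, the listed genes in the table, up to the 2 largest called positive and 2 largest called negative differences of each other list at 24 h, and for each listed gene the 2 genes most alike over group means. Fits were tested on simulated data: at 24 h, 155 of 200 changed genes were called with 8 unchanged ones. The simulated noise was independent between libraries, without batches or earlier adjustment. It therefore checks the code and does not give the error rate in these data. Labels give the same batch number to both lines of a culture batch, so the numbers pair the libraries. Deviations of the 18 pairs correlated between -0.0620 and 0.507 (median 0.127), and 12 were above 0.1. Alternatives were the batch as a block, with and without separate 0 h blocks, a filter on genes with a mean below the 25th percentile, quantile normalization, trend and robust eBayes, leaving out the groups not compared, and leaving out each replicate. Replicate 1 is batch 1, replicate 2 is batch 2 at 0 h and batch 3 later, and replicate 3 is batch 4. Gene positions are from GENCODE M21 on GRCm38, the build of mm10. Figures and summaries used python 3.11.15.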

Additional observations from a re-analysis of the deposited data

Results flagged for a closer look

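For 8 of the 9 genes the difference between Ikaros and control cells changed between times. The test was limma's test of the change itself, over 3 intervals, at an adjusted p under 0.05. Dusp6 passed none of these 3 tests with all libraries in 1 model without a block. Some alternative fits called its changes from 0 h. Of all genes, 56.3% passed at least 1 of the 3. From 0 to 24 h the log2 difference changed by 0.49 for Dusp2, 2.33 for Dusp5 and 1.81 for Dusp10, and by -4.63 for Spry1, -3.91 for Dusp7, -2.55 for Dusp4, -2.51 for Spred2 and -1.28 for Spred1. From 2 to 24 h, without any 0 h library, it changed by 0.98 for Dusp2, 0.84 for Dusp5 and 1.06 for Dusp10, and by -3.21 for Spry1, -2.53 for Dusp7 and -1.69 for Spred2. Already from 0 to 2 h it changed by 1.50 for Dusp5, and by -2.34 for Dusp4, -1.42 for Spry1 and -1.38 for Dusp7. The values of 0 h come from separately collected cultures, and the part of the collection in the changes from 0 h cannot be told apart from that of induction.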

How the results depend on the processing

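Each of 108 results for the 9 genes was computed under up to 9 alternatives, which gave 960 values. Of these, 888 kept direction and side of the threshold, 42 lost the call, 26 gained one and 4 changed sign, none of them called with all libraries. Signs changed for Spred2 at 0 h with quantile normalization (0.0018) and without replicate 2 (-0.035 to 0.038 without one replicate), for Dusp10 at 2 h without replicate 3 (-0.076 to 0.42) and for Dusp4 between 2 and 24 h without replicate 2 (-0.48 to 0.050). Of the 9 genes, 4 were called at 0 h and 1 to 4 without one replicate. Of all 12762 genes these counts were 1063 and 318 to 1204. At 2 h 6 were called, 2 to 5 without one replicate and 2 with only the groups compared. All genes gave 2432, 804 to 2719 and 860 in these fits. For the change from 0 to 2 h 4 of the 9 were called and 0 to 5 without one replicate. The counts over all genes were 396 and 54 to 469. Within control cells 0 were called over time, 3 with the replicate block, 4 with the block and separate 0 h blocks, which added Dusp2 (adjusted p = 0.0437), and 1, Dusp6 (0.0468), with trend and robust eBayes. In these fits 5.98%, 9.58% and 1.67% of all genes were called. The replicate block took away no call. It changed no call of the 9 genes beyond those given with their values in the report and the added Dusp2. The filter on low values removed Dusp10, so its 12 results have no value there. Fits without a replicate rest on 24 libraries. At 18 h 7 to 9 genes and at 24 h 8 or 9 genes were called under the alternatives tried. Over all genes the alternatives called 5432 to 7998 at 18 h and 6248 to 8495 at 24 h. The depth of the libraries is unknown, so what it limits could not be examined.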

Other observations

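On the deposited scale, which accounts for gene length, the mean levels over the 36 libraries put Dusp6 first (15.74, above 96.8% of genes), followed by Dusp5 (14.30, above 89.3%), Dusp2 (13.06, above 73.1%), Spred1 (12.51) and Spred2 (12.28), and put Dusp7 (11.37), Dusp4 (10.86), Spry1 (10.72) and Dusp10 (9.51) last. In control cells at 24 h Dusp6 was the highest, at 16.23 ± 0.11, above Dusp5 at 13.88 ± 0.26 (SD, n = 3). The order of these phosphatases was inverted in Ikaros cells at that time, with Dusp5 at 15.56 ± 0.14 and Dusp6 at 15.05 ± 0.13 (SD, n = 3), and the 3 libraries of each did not overlap. Spry1 went from 12.29 ± 0.16 in control cells at 24 h to 7.41 ± 0.48 in Ikaros cells, the lowest of the 9. The inversion was noticed after the values were seen and was not tested.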
